A study of Mus musculus with 9 samples.

Results

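Keratins are the intermediate filament proteins of epithelial cells, and their messenger RNAs were followed here in whole mandibles of mice. Rows of the count table were taken as keratin genes when their symbol was Krt followed by a number and, at most, the letter a or b, which leaves out the keratin-associated proteins. This gave 54 of 27179 genes. Of these, 53 had at least 1 count in some library, *Krt77* had 0 counts in all 9, and 30 had enough counts to be tested.

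Keratin filaments are built from pairs of a type I (acidic) and a type II (basic) protein, and the pair in use changes with the type of epithelium and with the age of the cell in it. In stratified epithelium the dividing basal layer makes *Krt5* and *Krt14*, and cells that leave it switch to other pairs: *Krt1* and *Krt10* in epidermis and other keratinized epithelium, *Krt4* and *Krt13* in the lining mucosa of the mouth. *Krt6a*, *Krt6b*, *Krt16* and *Krt17* are known from wounds, from hair follicles and from oral epithelium, *Krt8* and *Krt18* from simple epithelium, and *Krt75* from the hair follicle and from the enamel organ of teeth.

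The study profiled these mandibles to look for transcripts behind bone loss in mice that lack FcgRIIB, an inhibitory receptor for IgG whose loss on this background is used as a model of lupus. Poly(A) RNA was sequenced from whole mandibles, teeth included, of male C57BL/6 mice aged 6 months. The groups were 5 wild-type (WT) mice and 4 mice labelled FcgRIIB-/-, with 1 library per mouse, and the labels name no treatment. The allele is a deletion in the whole animal, and the mandible was pulverized as a whole, so that bone, marrow, tooth, attached muscle and epithelium are mixed in each library. Fcgr2b, the targeted gene, had 442 to 954 counts in WT and 562 to 757 in the libraries labelled FcgRIIB-/- (log2 fold change 0.21, standard error 0.20, adjusted p = 0.442 by edgeR's quasi-likelihood test), so the knockout label could not be checked by its level, and every direction below is between libraries by their labels. The libraries held 21453880 to 28991631 counts each. Levels are given as CPM, the count of a gene scaled to the normalized size of its library, and fold changes as log2 of the libraries labelled FcgRIIB-/- over WT with their standard error (SE). The adjusted p is that of edgeR's quasi-likelihood test with Benjamini-Hochberg adjustment over 16329 genes, with a threshold of 0.05.

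Keratins known from the outer layers of stratified epithelium were lower in the libraries labelled FcgRIIB-/-, while those known from the basal layer were not. Of the 30 tested keratins, 13 (43.3%) were lower and 6 (20%) higher, against 19.3% lower and 14.0% higher among all genes tested. All 6 tested suprabasal keratins fell, 4 of the mucosal and 2 of the epidermal kind, as did 3 of 4 wound-type keratins. Of the 3 basal keratins none fell. The simple keratins *Krt8* and *Krt18* and the inner root sheath keratins *Krt27* and *Krt73* rose. In 11 keratins every library labelled FcgRIIB-/- lay below every WT library, and in 5 above it, which is 36.7% and 16.7% of the tested keratins, against 17.5% and 12.1% of all tested genes. The median log2 fold change over the 30 keratins was -0.31, beside 0.01 over all genes tested. It was 0.20 over the 16 tested keratins of type I and -1.08 over the 14 of type II. The calls differed less, with 6 lower and 3 higher in type I and 7 lower and 3 higher in type II. In a whole organ, fewer cells of one kind and less RNA in each cell cannot be told apart. Which epithelium of the mandible, teeth included, each keratin came from was not measured, so basal and suprabasal keratins need not share one.

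Other tissues of the mandible differed between the same groups. Over all genes tested, 19.3% were lower and 14.0% higher. All 10 marrow markers fell (median -3.35, summed level 1550 to 3815 CPM in WT and 172 to 431 CPM in the other group), and WT replicate 5, highest for the suprabasal keratins, was also highest here. Of 8 skeletal muscle markers, 4 rose and none fell (median 0.86, 6139 to 14286 CPM in WT and 14517 to 25252 CPM in the other group). Of 5 melanocyte markers, 2 were tested and neither passed, with Tyr at 0 counts throughout. The part of tissue make-up in the keratin changes was not tested.

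**Figure D1:**
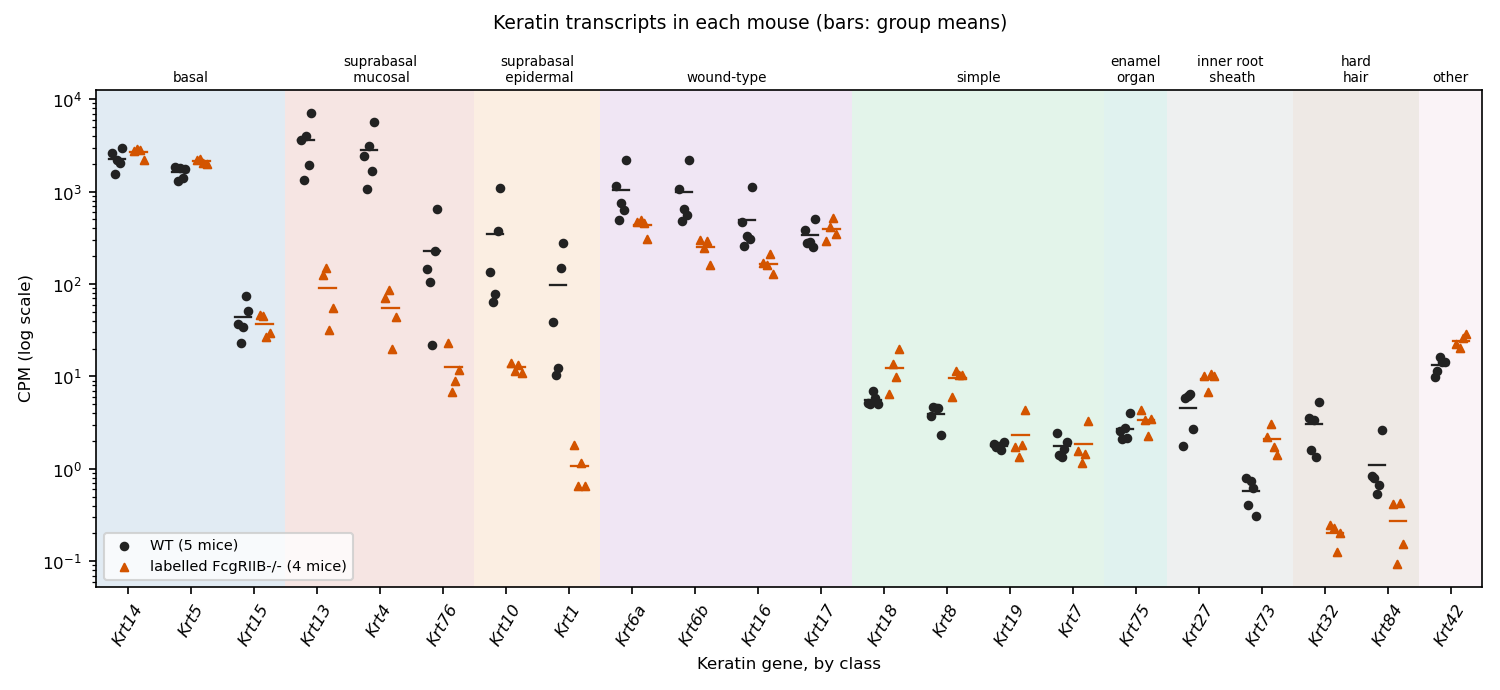
CPM of each named and tested keratin (vertical axis, log scale) in 5 WT mice (black circles) and 4 mice labelled FcgRIIB-/- (orange triangles), grouped by class along the horizontal axis, with short lines at the group means. The circles and triangles of Krt13, Krt4, Krt10 and Krt1 are far apart, with every triangle below every circle, while those of Krt14, Krt15 and Krt17 overlap.

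*Krt5* and *Krt14* form the filament pair of the basal layer and were among the most abundant keratins in both groups. *Krt14* (gene identifier 16664, chromosome 11 of mm10, 100203162 to 100207510) was at 2602, 1551, 2220, 2040 and 2938 CPM in WT replicates 1 to 5 and at 2752, 2925, 2797 and 2220 CPM in replicates 1 to 4 labelled FcgRIIB-/-. The groups overlapped over most of their range. Its log2 fold change was 0.24 (SE 0.17, adjusted p = 0.320), with a 95% interval of -0.18 to 0.65. *Krt5* (gene identifier 110308, chromosome 15, 101707069 to 101712905) was at 1855, 1299, 1784, 1390 and 1763 CPM in WT and at 2199, 2243, 2059 and 1988 CPM in the other group. Every library labelled FcgRIIB-/- was thus above every WT library, by a small margin. The log2 fold change was 0.39 (SE 0.13, adjusted p = 0.0356). This call was not held when library totals alone were used for scaling (0.32, adjusted p = 0.0826), nor without any 1 of WT replicates 2 and 4 and replicates 1, 2 and 3 labelled FcgRIIB-/- (adjusted p from 0.0521 to 0.0863).

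*Krt15*, a type I keratin of the basal layer and of hair follicle stem cells, was far less abundant. Its values were 36.9, 23.2, 34.2, 73.3 and 51.1 CPM in WT and 46.1, 44.7, 26.9 and 29.3 CPM in the libraries labelled FcgRIIB-/-. The WT mice spanned the whole range of the other group, and the log2 fold change of -0.25 (SE 0.30, adjusted p = 0.552) did not pass. Without WT replicate 4, the highest, it was 0.04.

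*Krt13* and *Krt4*, the suprabasal pair of the oral lining, showed the largest drop in absolute level. *Krt13* (gene identifier 16663, chromosome 11, 100117327 to 100121566) was at 3613, 1321, 3963, 1941 and 7181 CPM in WT and at 125, 149, 31.4 and 54.9 CPM in the libraries labelled FcgRIIB-/-. The lowest WT mouse was 8.86 times the highest mouse of the other group. The log2 fold change was -5.32 (SE 0.66, adjusted p = 5.17e-04). *Krt4* (gene identifier 16682, chromosome 15, 101918535 to 101924735) was at 2410, 1066, 3110, 1680 and 5713 CPM in WT and at 70.4, 85.7, 19.9 and 44.4 CPM in the other group. It followed *Krt13* from mouse to mouse, with WT replicate 5 the highest and replicate 3 labelled FcgRIIB-/- the lowest of both. Its log2 fold change was -5.67 (SE 0.62, adjusted p = 2.97e-04).

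*Krt76*, a type II keratin of the keratinized mucosa of palate and gum, differed 29.3-fold among WT mice, more than the other suprabasal keratins. It was at 144, 106, 22.1, 230 and 648 CPM in WT and at 22.9, 6.84, 8.85 and 11.8 CPM in the libraries labelled FcgRIIB-/-. The groups overlapped through WT replicate 3, which lay just under replicate 1 of the other group. The log2 fold change was -4.18 (SE 0.86, adjusted p = 0.00487). *Krt78*, a type II keratin of suprabasal cells, fell by 5.38 (SE 0.56, adjusted p = 2.27e-04) on the log2 scale, from a mean of 79.7 ± 53.6 CPM (SD, n = 5) to 1.92 ± 1.11 CPM (SD, n = 4). It had the lowest adjusted p of all keratins.

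*Krt10* and *Krt1*, the suprabasal pair of epidermis, were lower and less even in WT than the mucosal pair. *Krt10* (gene identifier 16661, chromosome 11, 99385254 to 99397449) was at 134, 63.7, 77.1, 378 and 1087 CPM in WT, and at 14.1, 11.6, 13.4 and 10.9 CPM in the libraries labelled FcgRIIB-/-. WT mice differed 17.1-fold among themselves and the other mice 1.30-fold, and no mouse of one group reached the other. The log2 fold change was -4.80 (SE 0.89, adjusted p = 0.00314). *Krt1* (gene identifier 16678, chromosome 15, 101845426 to 101850786) was at 38.7, 10.4, 12.3, 148 and 275 CPM in WT and at 1.82, 0.647, 1.14 and 0.659 CPM in the other group. The last 4 values rest on 52, 14, 27 and 13 counts, so counting error adds to their spread. Its log2 fold change of -6.44 (SE 1.2, adjusted p = 0.00317) was the largest of all keratins and its SE was the widest. The other epidermal keratins were barely detected: *Krt2*, a keratin of the upper epidermis, had 0 to 6 counts per library, and *Krt9*, a keratin of palm and sole, also 0 to 6.

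WT replicate 5 had the highest level of the WT mice in all 13 keratins that fell and in 0 of the 6 that rose. Without this mouse all 13 still passed as lower, and 5 of the 6 as higher. The log2 fold change without it was -3.68 for *Krt10*, -5.53 for *Krt1*, -3.28 for *Krt76*, -3.47 for *Krt24* and -1.29 for *Krt84*, each of which is over 1.5 times smaller in fold than with it. Those of *Krt13*, *Krt4* and *Krt78* were then -4.88, -5.20 and -4.87. In 77 genes (0.472% of those tested) the log2 fold change was -5 or below at an adjusted p under 0.05, and 4 of them were the keratins *Krt1*, *Krt4*, *Krt13* and *Krt78*.

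**Figure D2:**
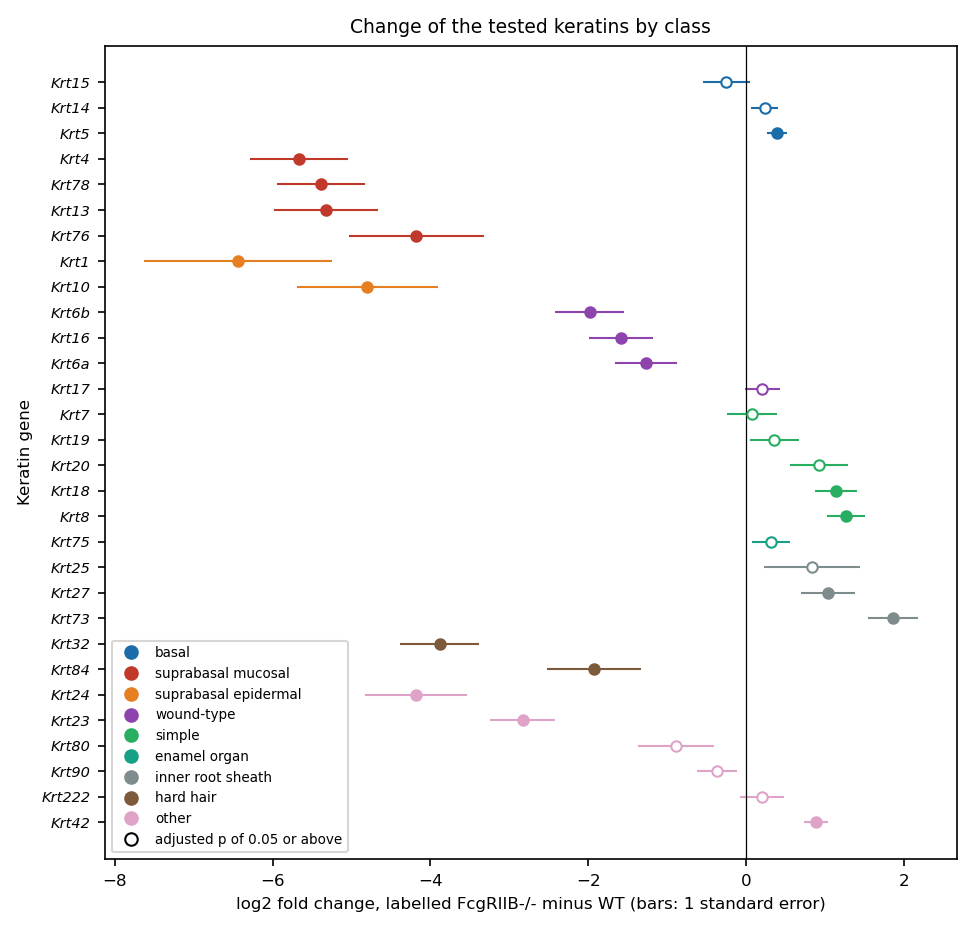
log2 fold change (horizontal axis, libraries labelled FcgRIIB-/- minus WT) of the 30 tested keratins, with bars of 1 SE, grouped by class in colour, and open symbols for an adjusted p of 0.05 or above. The 6 suprabasal keratins lie between -4.18 and -6.44, while the 3 basal keratins lie between -0.25 and 0.39.

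The wound-type keratins were intermediate, and one of them was not lower. *Krt6b* was at 1057, 479, 650, 558 and 2172 CPM in WT and at 296, 245, 295 and 160 CPM in the libraries labelled FcgRIIB-/-, with no overlap (log2 fold change -1.98, SE 0.44, adjusted p = 0.00702). *Krt6a* was at 1154, 497, 762, 634 and 2180 CPM in WT and at 472, 497, 460 and 310 CPM in the other group. Here WT replicate 2 met the highest library labelled FcgRIIB-/-, and the log2 fold change was -1.26 (SE 0.39, adjusted p = 0.0300). The call was not held without WT replicate 1 or without any 1 of the 4 mice labelled FcgRIIB-/- (adjusted p from 0.0540 to 0.0813). *Krt16*, the type I partner of the *Krt6* proteins, was at 474, 256, 331, 305 and 1120 CPM in WT and at 169, 159, 209 and 127 CPM in the other group, again without overlap (log2 fold change -1.58, SE 0.41, adjusted p = 0.0143). *Krt17*, which is also made in hair follicles and other skin appendages, was at 381, 278, 285, 254 and 501 CPM in WT and at 290, 414, 513 and 352 CPM in the libraries labelled FcgRIIB-/-. Its groups overlapped, with a log2 fold change of 0.21 (SE 0.22, adjusted p = 0.493) and a 95% interval of -0.31 to 0.72. These levels are partly uncertain, since 38.6% of the 75-base stretches in the exons of *Krt6a* and 39.6% in those of *Krt6b* also occur in other genes (85.5% and 93.1% of these shared stretches in the other of the pair), and 28.9% of those of *Krt16* occur in Gm11597 or *Krt14*. Reads from such stretches cannot be assigned to 1 gene, and how they were counted is not given in the sources used here. For *Krt14* and *Krt5* these shares were 5.71% and 5.18%, and for *Krt13*, *Krt4*, *Krt10* and *Krt1* they were 0.

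The simple keratins were expressed at a low level and moved the other way. *Krt8* (gene identifier 16691, chromosome 15, 101996711 to 102004342) was at 3.77, 4.61, 4.59, 4.55 and 2.30 CPM in WT and at 5.99, 11.5, 10.4 and 10.3 CPM in the libraries labelled FcgRIIB-/-. All 4 of these lay above WT (log2 fold change 1.26, SE 0.24, adjusted p = 0.00329). Its count is uncertain, since 22.0% of its 75-base stretches occur in the pseudogene *Krt8-ps*. *Krt18*, its partner, was at 5.14, 5.06, 6.94, 5.87 and 5.0 CPM in WT and at 6.52, 13.5, 9.87 and 19.7 CPM in the other group. Replicate 1 labelled FcgRIIB-/- lay within the WT range, and the log2 fold change was 1.14 (SE 0.27, adjusted p = 0.00923).

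*Krt7* and *Krt19*, keratins of ducts and other simple or glandular epithelium, did not pass. *Krt19* was at 1.85, 1.73, 1.77, 1.58 and 1.95 CPM in WT and at 1.72, 1.34, 1.82 and 4.31 CPM in the libraries labelled FcgRIIB-/- (log2 fold change 0.36, SE 0.31, adjusted p = 0.399). *Krt7* was at 2.43, 1.40, 1.35, 1.65 and 1.95 CPM in WT and at 1.58, 1.16, 1.44 and 3.29 CPM in the other group (log2 fold change 0.08, SE 0.32, adjusted p = 0.875). In both genes and in *Krt18*, replicate 4 labelled FcgRIIB-/- was the highest of the 9 libraries, and without it the log2 fold change was -0.12 for *Krt19*, -0.33 for *Krt7* and 0.83 for *Krt18*, of which the last still passed (adjusted p = 0.0250). The same library was also the highest for salivary gland markers (summed level 103 CPM, against 21.6 to 28.6 CPM in the other 3 mice of its group and 17.1 to 22.0 CPM in WT). Muc19 alone made up 57.5 CPM of that 103 CPM. Not every marker was highest in this library. Amy1 was highest in replicate 1 labelled FcgRIIB-/- (26.5 CPM), and Bhlha15 in WT replicate 2 (3.97 CPM, against 1.17 CPM in replicate 4 labelled FcgRIIB-/-). Of the 7 salivary markers, 4 were tested and 1, Amy1, rose, against 14.0% higher among all genes tested. The part of gland tissue in these keratin levels was not tested. *Krt20*, a keratin of gut and bladder lining, had a log2 fold change of 0.92 (SE 0.37, adjusted p = 0.0755).

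*Krt75*, the keratin assigned to the enamel organ, was at 2.57, 2.09, 2.74, 2.17 and 3.98 CPM in WT and at 4.38, 3.37, 2.29 and 3.45 CPM in the libraries labelled FcgRIIB-/-. The groups overlapped (log2 fold change 0.32, SE 0.24, adjusted p = 0.332, 95% interval -0.25 to 0.89). The secreted enamel proteins were followed in 7 enamel organ markers, of which 5 rose and none fell. Among all genes tested, 14.0% were higher and 19.3% lower. The median log2 fold change of the markers was 0.64. Both this value and no change lie within the 95% interval of *Krt75*, so the interval cannot show whether *Krt75* followed the markers. Amelx (amelogenin) rose by 1.34 (SE 0.30, adjusted p = 0.00757). A difference between *Krt75* and these markers was not tested.

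Hair-type keratins were present at trace levels. Of 15 hard hair keratins, 2 were tested and both fell, against 19.3% lower among all genes tested. With only 2 genes this says little about the class. *Krt32*, a type I keratin of the hair cuticle, was at 3.59, 1.61, 3.39, 1.36 and 5.35 CPM in WT and at 0.245, 0.231, 0.127 and 0.203 CPM in the other group (log2 fold change -3.88, SE 0.50, adjusted p = 6.15e-04). No mouse of one group came near the other, although the last 4 values rest on 7, 5, 3 and 4 counts. *Krt84*, a type II hard keratin known from tongue papillae, was at 0.833, 0.803, 0.540, 0.661 and 2.62 CPM in WT and at 0.420, 0.0924, 0.424 and 0.152 CPM in the other group (log2 fold change -1.93, SE 0.59, adjusted p = 0.0296). That call was not held without replicate 2 or 4 labelled FcgRIIB-/- (adjusted p 0.0720 and 0.0744).

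Of 8 inner root sheath keratins, which line the growing hair, 3 were tested and 2 rose, against 14.0% higher among all genes tested. *Krt27* was at 1.78, 5.78, 6.21, 6.42 and 2.69 CPM in WT and at 10.2, 6.75, 10.6 and 10.03 CPM in the libraries labelled FcgRIIB-/-, with no overlap (log2 fold change 1.04, SE 0.34, adjusted p = 0.0385). The call depended on single mice and on scaling (adjusted p from 0.0319 to 0.0879 when leaving out each mouse, and 0.0546 with library totals). *Krt73* was at 0.797, 0.401, 0.732, 0.624 and 0.312 CPM in WT and at 2.21, 3.05, 1.74 and 1.42 CPM in the other group. All 4 were above WT (log2 fold change 1.86, SE 0.32, adjusted p = 0.00223), and the call held without each mouse in turn. Of 7 hair follicle markers, 5 were tested, of which 1 fell and 1 rose, against 19.3% lower and 14.0% higher among all genes tested. Foxn1, a transcription factor of hair keratinocytes, fell by 1.17 on the log2 scale (SE 0.33, adjusted p = 0.0217). Tchh (trichohyalin, a protein of the inner root sheath) rose by 0.71 (SE 0.11, adjusted p = 0.00156). Padi3, S100a3 and Gata3 did not pass (adjusted p 0.658, 0.219 and 0.611). Dsg4, a desmosomal protein of the hair shaft, had 0 counts in WT, and Hoxc13, a regulator of hard hair keratins, a mean of 0.0910 CPM.

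Among the keratins outside these classes, 2 fell and 1 rose. *Krt24*, a type I keratin of stratified epithelium, fell by 4.19 (SE 0.65, adjusted p = 0.00141) on the log2 scale, from 138 ± 122 CPM (SD, n = 5) to 7.46 ± 4.33 CPM (SD, n = 4). *Krt23* fell by 2.83 (SE 0.41, adjusted p = 0.00103), and in both genes the groups did not overlap. *Krt42*, a type I keratin known from the nail, was at 9.82, 11.3, 16.1, 14.4 and 14.2 CPM in WT and at 22.5, 20.3, 26.3 and 28.6 CPM in the libraries labelled FcgRIIB-/-, where all 4 lay above WT (log2 fold change 0.89, SE 0.15, adjusted p = 0.00219). *Krt80*, *Krt90* and *Krt222* had log2 fold changes of -0.89, -0.37 and 0.20, with adjusted p of 0.179, 0.285 and 0.601. WT replicate 5 alone was high for *Krt80* (59.2 CPM, against 11.1 to 14.5 CPM in the other WT mice), and without it the log2 fold change of *Krt80* was -0.09. The 24 keratins that were not tested reached at most 21 counts in any library, in *Krt79*.

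Summed over the family, keratins took 0.736% to 2.59% of the counts in WT and 0.499% to 0.679% in the libraries labelled FcgRIIB-/-. The sum was 14121, 7131, 13469, 9898 and 26296 CPM in WT and 6563, 6880, 6533 and 5427 CPM in the other group, a 2.23-fold difference of means. All of the latter lay below WT, the nearest WT mouse being replicate 2. In mucosal suprabasal keratins the sum fell from 6709 ± 4326 CPM (SD, n = 5) to 160 ± 87.3 CPM (SD, n = 4). Basal keratins stood at 3932 ± 759 CPM and 4832 ± 420 CPM with the same n.

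The make-up of the keratin pool differed between the groups, with no test made of these sums. Basal keratins were 18.1% to 40.3% of keratin counts in WT mice and 74.7% to 78.1% in the mice labelled FcgRIIB-/-. Mucosal suprabasal keratins were 35.5% to 53.3% in WT and 0.933% to 3.56% in the other group. The share of wound-type keratins overlapped, at 15.1% to 22.7% and 17.5% to 22.6%. Per kilobase of exon, the order of group means in WT was *Krt13* (1979 CPM per kb), *Krt4* (1311), *Krt14* (1291) and *Krt5* (736). In the libraries labelled FcgRIIB-/- it was *Krt14* (1521 CPM per kb), *Krt5* (966), *Krt17* (253) and *Krt6a* (180), with *Krt13* in position 7 at 49.5 CPM per kb. In WT, *Krt4* and *Krt14* were close beside their spread between mice, so their order is not settled.

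**Figure D3:**
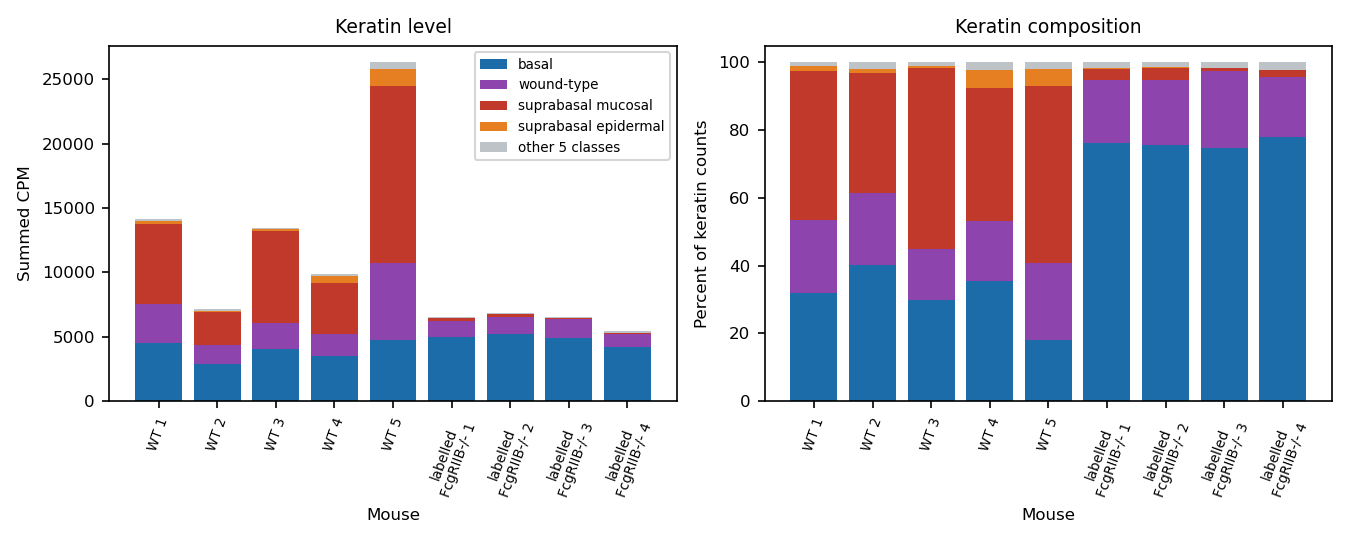
Keratin counts of each mouse by class (colours), as summed CPM (left) and as percent of all keratin counts (right), with 5 WT mice followed by 4 mice labelled FcgRIIB-/-. The basal part lies between 2873 and 5213 CPM in all 9 mice on the left, and on the right it rises from at most 40.3% in WT to at least 74.7%, while the mucosal suprabasal part nearly vanishes.

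Ratios of 2 keratins within a library do not depend on how the library was scaled, and 9 were tested with a two-sided exact permutation test over all splits of the mice, with Benjamini-Hochberg adjustment over the 9. The smallest p that 5 against 4 mice allow is 0.00794. The pairs were chosen with earlier results of these data known. *Krt13* and *Krt10* each separated the groups alone, so their ratios to *Krt14* largely restate those results and are no independent support. The log2 ratio of *Krt13* to *Krt14* was 0.47, -0.23, 0.84, -0.07 and 1.29 in WT and -4.46, -4.29, -6.47 and -5.33 in the libraries labelled FcgRIIB-/-. This put the suprabasal keratin at about the level of the basal one in WT and far below it in the other group, a difference of -5.60 (exact permutation p = 0.00794, adjusted p = 0.0238). The ratio of *Krt10* to *Krt14* differed by -4.21 with the same p-values, and again no mouse of one group reached the other. These calls, and that of *Krt1* to *Krt10*, were lost in 8 of the 9 fits that left out 1 mouse (adjusted p up to 0.107). With fewer mice the smallest p rises, and after adjustment it passes only where enough of the 9 ratios reach it. These losses therefore cannot show whether the calls rest on single mice. The calls passed without replicate 1 labelled FcgRIIB-/- (adjusted p = 0.0402), where *Krt18* to *Krt14* also passed.

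For 4 pairs of filament partners the difference between groups was small beside the changes above. The log2 ratio of *Krt5* to *Krt14* was -0.47 ± 0.19 (SD) in WT and -0.33 ± 0.12 in the other group, a difference of 0.14 (exact permutation p = 0.246, adjusted p = 0.316). *Krt4* to *Krt13* differed by -0.29 (exact permutation p = 0.0714, adjusted p = 0.129), although each fell more than 5 log2 units. *Krt8* to *Krt18* differed by 0.22 (exact permutation p = 0.421, adjusted p = 0.473). *Krt6a* to *Krt16* differed by 0.30 (exact permutation p = 0.0476, adjusted p = 0.107). None of these 4 passed after adjustment, which does not show that the partners changed equally.

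The ratio of *Krt1* to *Krt10* passed with all 9 mice. Their log2 ratio was -1.79, -2.61, -2.64, -1.35 and -1.98 in WT and -2.90, -4.00, -3.46 and -3.89 in the libraries labelled FcgRIIB-/-, a difference of -1.49 (exact permutation p = 0.00794, adjusted p = 0.0238). *Krt1* had thus fallen further than its partner in every mouse of that group, with the low counts of *Krt1* given above and with a prior count of 2 added to both before the ratio. The ratios of *Krt18* and *Krt75* to *Krt14* did not pass (0.77, exact permutation p = 0.0952, adjusted p = 0.143, and 0.05, exact permutation p = 0.825).

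**Figure D4:**
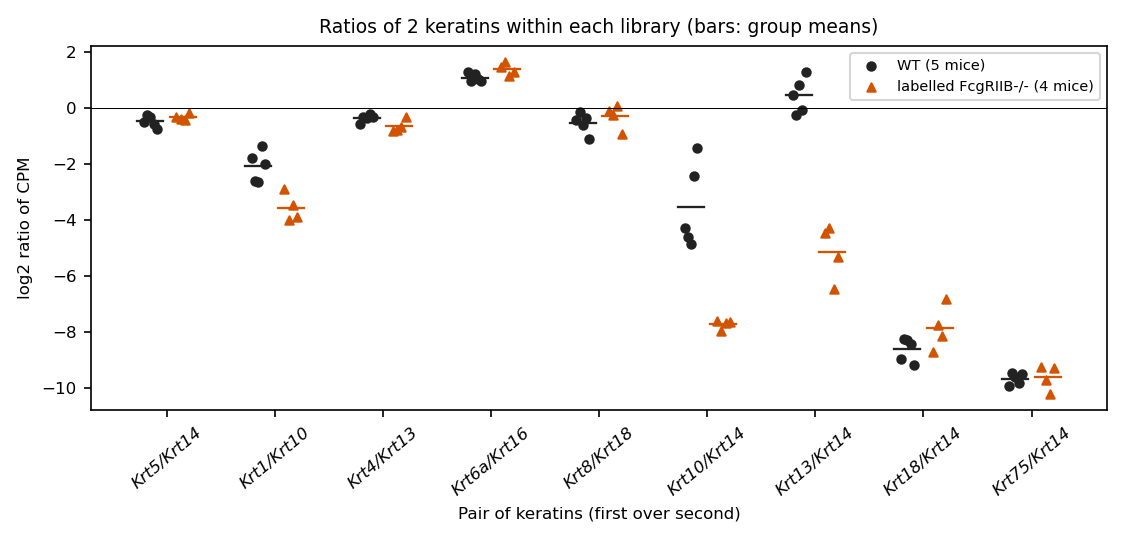
log2 ratio of the CPM of 2 keratins within each library (vertical axis) for 9 pairs, in 5 WT mice (black circles) and 4 mice labelled FcgRIIB-/- (orange triangles), with short lines at the group means. The groups are apart for Krt1/Krt10, Krt10/Krt14 and Krt13/Krt14 and overlap for Krt5/Krt14 and Krt8/Krt18.

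The family lies in a cluster on chromosome 11 (99232761 to 100269951, 27 genes, all of type I) and one on chromosome 15 (101348315 to 102032026, 27 genes, 25 of type II, *Krt88* with no type assigned and, at its end, *Krt18*), by RefSeq coordinates on GRCm38 (mm10). On chromosome 11, 15 were tested, 6 lower and 2 higher, and on chromosome 15 it was 15, 7 and 4. Over all genes tested, 19.3% were lower and 14.0% higher. Some neighbours differed widely. *Krt13* (-5.32) lies 10192 bases from *Krt15* (-0.25), and *Krt6a* (-1.26) lies 12763 bases from *Krt5* (0.39). The suprabasal genes *Krt1*, *Krt76*, *Krt4* and *Krt78* follow each other along chromosome 15, with only the untested *Krt77* and *Krt79* between them, and the next genes, *Krt8* and *Krt18*, rose.

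**Figure D5:**
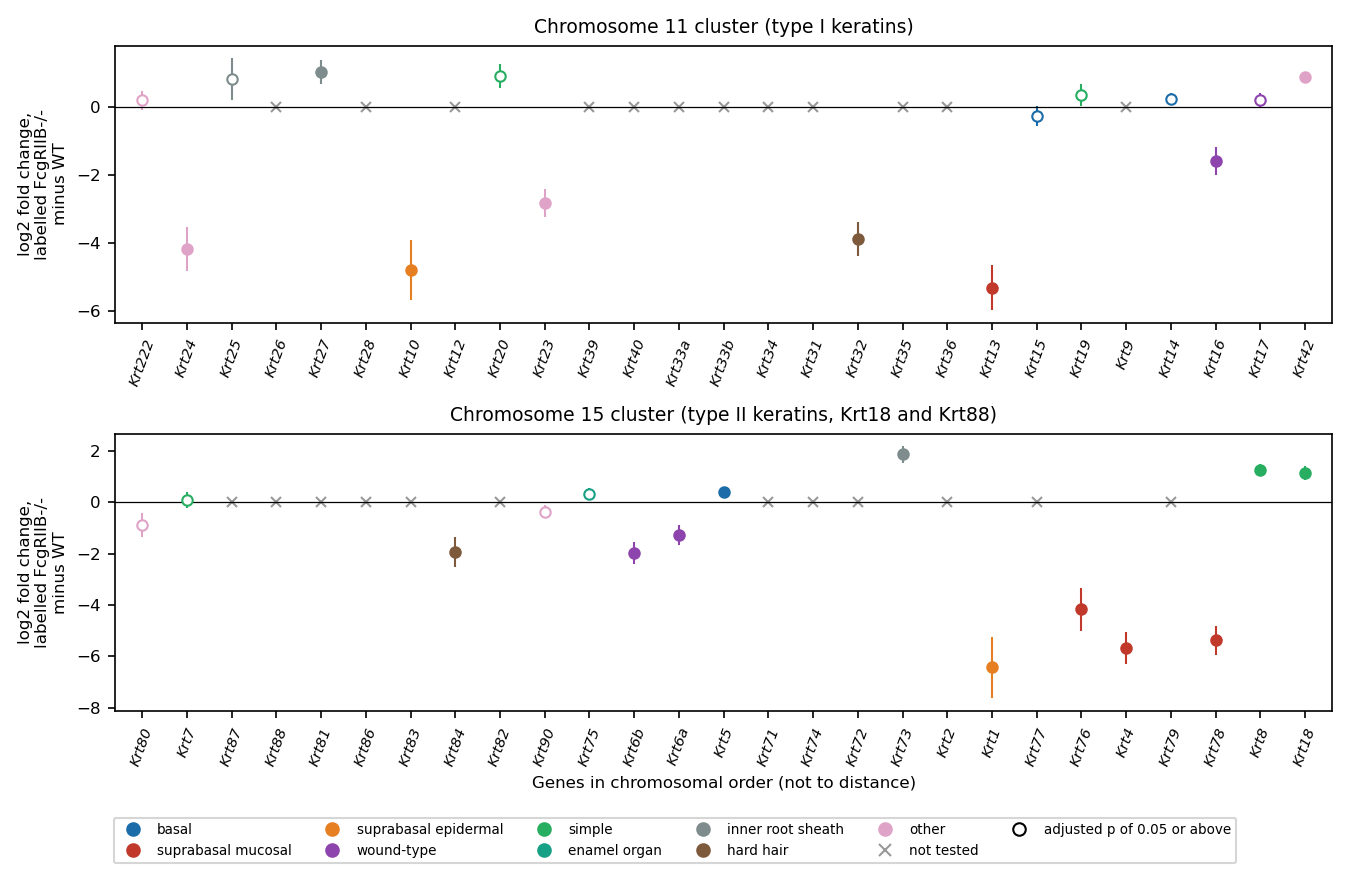
log2 fold change (vertical axis, libraries labelled FcgRIIB-/- minus WT, bars of 1 SE) of the keratin genes in their order along chromosomes 11 and 15, in equal steps and not to distance, with class in colour, open symbols for an adjusted p of 0.05 or above and crosses for genes not tested. Krt13 is low beside Krt15 near 0, and Krt1, Krt76, Krt4 and Krt78 form a low run beside Krt8 and Krt18 above 0.

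Since neighbouring genes changed so differently, the bases just before their starts are shown for 5 of them: a mucosal suprabasal gene of each cluster (*Krt13* and *Krt78*), a basal gene (*Krt5*) and the simple pair (*Krt8* and *Krt18*). The sequences are the 200 bases before a transcript start in the RefSeq table on GRCm38.p6, 5′ to 3′ on the strand of the gene. They are *Krt13* at chr11:100121567-100121766 on the minus strand, *Krt78* at chr15:101954288-101954487 on the minus strand, *Krt5* at chr15:101712906-101713105 on the minus strand, *Krt8* at chr15:102004343-102004542 on the minus strand and *Krt18* at chr15:102028016-102028215 on the plus strand. Capitals mark the TATA box motif TATAAA, the related ATAAAA and the motif TGANTCA. The last is looser than the usual site of AP-1 factors, which has G or C in the middle. The stretch marked in *Krt13* has A there. Either strand counts, and *Krt8* and *Krt18* hold none of these motifs. The start used for *Krt8* is not within 50 bases of a coding start in GENCODE vM21, so its window may not be its promoter. The RefSeq span of *Krt78* extends beyond its window, which directly precedes a coding transcript of GENCODE vM21.
Krt13: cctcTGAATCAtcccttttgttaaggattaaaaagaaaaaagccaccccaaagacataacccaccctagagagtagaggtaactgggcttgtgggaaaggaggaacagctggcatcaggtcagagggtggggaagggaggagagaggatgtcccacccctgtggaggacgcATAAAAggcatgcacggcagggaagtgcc
Krt78: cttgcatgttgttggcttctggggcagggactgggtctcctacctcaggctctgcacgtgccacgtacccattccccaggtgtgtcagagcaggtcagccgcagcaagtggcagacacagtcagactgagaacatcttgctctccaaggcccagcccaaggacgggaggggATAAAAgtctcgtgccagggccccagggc
Krt5: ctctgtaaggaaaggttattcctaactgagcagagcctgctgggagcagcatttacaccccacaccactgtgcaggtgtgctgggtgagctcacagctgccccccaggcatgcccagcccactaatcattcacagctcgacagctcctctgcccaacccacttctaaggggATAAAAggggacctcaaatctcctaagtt
Krt8: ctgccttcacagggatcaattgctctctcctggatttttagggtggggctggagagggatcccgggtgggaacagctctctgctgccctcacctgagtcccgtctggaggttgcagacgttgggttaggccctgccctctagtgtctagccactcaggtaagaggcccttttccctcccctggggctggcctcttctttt
Krt18: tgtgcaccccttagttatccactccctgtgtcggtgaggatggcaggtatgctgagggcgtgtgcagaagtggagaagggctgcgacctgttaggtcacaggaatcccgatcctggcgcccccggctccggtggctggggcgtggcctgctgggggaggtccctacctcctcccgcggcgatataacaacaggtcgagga

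A start was found in the RefSeq table for 36 of the 54 keratins, with 37 windows of 250 bases because *Krt13* has 2. Of these windows, 31 end within 50 bases of the start of a coding transcript in GENCODE vM21 and 6 do not (*Krt14*, *Krt8*, *Krt40*, *Krt42*, *Krt72* and the second of *Krt13*), and the window of *Krt14* lies inside the gene, so it is not shown. *Krt1*, *Krt4*, *Krt15*, *Krt16*, *Krt17*, *Krt6a* and *Krt6b* are among those without one. TATAAA was in 17 of 37 keratin windows and in 12.4% of all 32851 windows, and ATAAAA in 20 and in 17%. A TATAAAA stretch counts for both, and ATAAAA was added after the sequences had been seen. Between bases -36 and -24 from the start, 12 windows had TATAAA and 14 ATAAAA, among them *Krt10* and *Krt76* with the first and *Krt13*, *Krt78*, *Krt23* and *Krt5* with the second. TGANTCA was in both windows of *Krt13* and in no other keratin window, against 6.75% of all windows. CACCC, a site of KLF-type factors, was in 29 of 37 and in 52.0% of all, and GGGCGG, the GC box, in 2 of 37 (*Krt7* and *Krt75*) and in 32.7%. Both strands were searched. ATAAAA was in 6 of the 9 windows of keratins that fell and in 1 of 6 of those that rose, and TATAAA in 4 and in 2. The 9 include both windows of *Krt13*, and the 6 include those of *Krt8* and *Krt42*, so nothing is concluded from this contrast. *Krt5* holds ATAAAA at the same place as *Krt13* and *Krt78*. A match of letters is not a site in use.

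Proteins that anchor keratin filaments or bundle them were followed as a list of 12, all tested. Of these, 4 fell and 2 rose (median log2 fold change -0.45), against 19.3% lower and 14.0% higher among all genes tested. Flg (filaggrin, which bundles the filaments of keratinized cells) fell by 7.27 on the log2 scale (SE 1.37, adjusted p = 0.00341). Its counts were 86, 31, 29, 326 and 484 in WT and 4, 0, 0 and 0 in the libraries labelled FcgRIIB-/-, so the size of its fall is uncertain. Ppl (periplakin), Eppk1 (epiplakin) and Dsp (desmoplakin, the desmosomal anchor) also fell, with log2 fold changes of -1.56, -1.15 and -1.0 (adjusted p 0.00732, 0.0332 and 0.0209). Tchh rose by 0.71 and Tchp, a keratin-binding protein, by 0.46 (adjusted p 0.00156 and 0.00643). Plec and Dst, the plectin and dystonin that tie basal keratins to hemidesmosomes, were at -0.22 and 0.08 (adjusted p 0.183 and 0.527). Of 11 transcriptional and splicing regulators of epithelium, 4 fell and none rose (median -0.43), against the same 19.3% and 14.0% of all genes. The log2 fold changes were -2.1 for Grhl3, -1.71 for Ovol1, -1.11 for Grhl1 and -0.65 for Ehf, factors known from the differentiating layers (adjusted p 0.00194, 0.00535, 0.0174 and 0.0376). Zfp750 and Klf4, further factors of the list, were at -0.59 and -0.43 and did not pass (adjusted p 0.103 and 0.108). Trp63, the master factor of the basal layer, was at 0.31 (SE 0.11, adjusted p = 0.0599).

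General markers of stratified epithelium were mixed. Of 14, 2 fell and 3 rose, with a median of -0.28, against 19.3% lower and 14.0% higher among all genes tested. The log2 fold changes were -1.81 for Gjb2 and -1.60 for Ly6d, and 0.57, 0.36 and 0.32 for Epcam, Col17a1 and Itgb4. Col17a1 and Itgb4 are parts of the hemidesmosome. Itga6, a further part of it, was at -0.27 and did not pass (adjusted p = 0.110). In Itga6 every library labelled FcgRIIB-/- lay below every WT library. The summed level of the 14 markers was 2149 to 3449 CPM in WT and 2350 to 2934 CPM in the libraries labelled FcgRIIB-/-. Epithelium was thus present in all 9 libraries. Intermediate filament genes outside the family were a further comparison: of 15, 11 were tested, 1 fell (Bfsp2) and none rose, with a median of -0.01, and Vim and Des were at 0.15 and 0.60 (adjusted p 0.250 and 0.0843).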

How the data were processed

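Poly(A) RNA libraries of 5 WT mice and 4 mice labelled FcgRIIB-/- were made with a directional kit. Per the submitters' processing notes, the authors used Trim Galore, HISAT 02.1.0 on mm10 and then featureCounts. What they deposited are raw counts, one value per gene and mouse. The annotation, the strand setting and the handling of reads that match several genes are not given in the sources used here. The table held 1 further column that matched no mapped sample, and it was not used. Samples were grouped by their genotype labels, and same-numbered mice are different animals.

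Everything else was computed with R 4.3.3. edgeR 4.0.16 was run on all genes, with filterByExpr at a minimum count of 10 and TMM scaling. Genotype was the only term of its quasi-likelihood test, and Benjamini-Hochberg adjusted p-values were read at 0.05. SE was the size of the log2 fold change divided by the root of F. Ratios used a prior count of 2 and were tested by two-sided exact permutation. DESeq2 1.42.0, other scalings, no filter, a replicate block and leaving out each mouse were alternatives. On simulated counts of 16329 genes with 200 changed by a log2 fold change of 1, the test called 71.0% of them, with 6.58% of calls on unchanged genes. The 16 pairs of libraries within a group all differed by far more than sampling noise. At 21453880 to 28991631 counts per library, keratins below 1 CPM rest on few reads.

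The keratin classes, lists, pairs and named genes were chosen with earlier results of these data known. Per-mouse values are given for the defining keratins of each class, the 2 inner root sheath and 2 hard hair keratins of highest level, and every keratin that rose. Exon lengths and shared 75-base stretches came from GENCODE vM21, coordinates and promoters from RefSeq GRCm38.p6.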

Additional observations from a re-analysis of the deposited data

Results flagged for a closer look

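Dixon's test at the 95% level was applied to log values in 82 groups of 4 or 5 mice. In 4 of them 1 mouse lay far from the others of its group, and chance alone gives about 1 in 20. The groups did not cover every tested keratin, and *Krt80* was not among them. The values below are CPM. *Krt6a* was at 310 CPM in replicate 4 labelled FcgRIIB-/-, against 460 to 497 CPM in the other 3 mice of that group. *Krt8* was at 5.99 CPM in replicate 1 labelled FcgRIIB-/-, against 10.3 to 11.5 CPM. *Krt27* was at 6.75 CPM in replicate 2 labelled FcgRIIB-/-, against 10.03 to 10.6 CPM. *Krt84* was at 2.62 CPM in WT replicate 5, against 0.540 to 0.833 CPM in the other WT mice.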

How the results depend on the processing

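The counts of 13 keratins lower and 6 higher became 13 and 6 with DESeq2's size factors, without the filter on low counts and with DESeq2's own test, and 13 and 4 with library totals, which moved the median of all genes to -0.07. Leaving out each mouse gave 11 to 13 lower and 4 to 7 higher. The calls lost were those of *Krt5*, *Krt6a*, *Krt27* and *Krt84*, and *Krt20* was gained without WT replicate 1 or replicate 1 labelled FcgRIIB-/- (adjusted p 0.0324 and 0.0432). For single keratins 394 of 420 alternative values kept direction and side of the threshold. Without each mouse in turn, *Krt15* ranged from -0.39 to 0.036, *Krt19* from -0.12 to 0.55 and *Krt7* from -0.33 to 0.25, with the sign turned without WT replicate 4 for *Krt15* and without replicate 4 labelled FcgRIIB-/- for the other two. *Krt7* was at -0.014 with library totals, and these 3 genes passed in none of these fits.

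Without each mouse in turn, the ratio differences ranged from -1.71 to -1.31 for *Krt1/Krt10*, from -4.55 to -3.69 for *Krt10/Krt14* and from -5.88 to -5.16 for *Krt13/Krt14*. Adjusted p ranged from 0.0402 to 0.107, and each call was lost in 8 of 9 fits. Fewer mice raise the smallest p that permutation allows, so these losses cannot show whether the calls rest on single mice. *Krt18/Krt14* ranged from 0.43 to 1.06 and passed without replicate 1 labelled FcgRIIB-/- (adjusted p = 0.0402). *Krt75/Krt14* ranged from -0.070 to 0.24, and was -0.017 without WT replicate 1, -0.070 without replicate 1 and -0.060 without replicate 4 labelled FcgRIIB-/-. The cause of these changes was not tested.

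Mice that share a replicate number are different animals, and their deviations from the group means correlated at 0.10, 0.03, -0.11 and -0.07, so the numbers were not taken as pairs. A fit with the replicate number as a block gave 12 keratins lower and 5 higher (all genes 2410 and 1594, against 3144 and 2289), with *Krt84* (adjusted p = 0.0655) and *Krt27* (0.0764) no longer called.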
